A study of Mus musculus with 2 samples.

Results

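Osteo-primed CAR cells are marrow stromal cells that carry the transcripts of CXCL12-abundant reticular (CAR) cells together with those of early bone-forming cells. Here they were the CAR cells with at least 5 UMIs (unique molecular identifiers, each standing for 1 captured transcript) of Wif1, Alpl and Hs3st5 combined and fewer than 20 of the osteocalcin genes Bglap and Bglap2. A CAR cell had at least 10 UMIs of Cxcl12, at least 1 of Lepr and fewer than 3 of the endothelial genes Cdh5 and Kdr. Cells with 5 or more UMIs of Top2a, Cenpf and Mki67 (cycling) or 10 or more of Ifit1, Ifit3 and Cxcl10 (interferon-high) were left out. The rule found 3987 cells among 28573 CAR cells and 41378 kept cells of all kinds. They were 2640 of 15626 CAR cells in the adult library (16.9%, 95% interval 16.3% to 17.5%) and 1347 of 12947 in the old library (10.4%, 9.88% to 10.9%). Over all kept cells the shares were 11.8% and 7.10%. The other CAR cells, 11379 adult and 11571 old, had fewer than 5 UMIs of the 3 genes and the same limit on osteocalcin. The intervals are exact binomial and cover counting error only.

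CAR cells are perivascular mesenchymal cells that supply blood stem cells with CXCL12 and stem cell factor, and they can give rise to marrow adipocytes and to osteoblasts. Cells of this lineage that turn on early bone genes while still making niche factors are often called osteo-primed. Wif1 encodes a secreted protein that binds Wnt ligands and holds them away from their receptors, Alpl encodes the alkaline phosphatase that mineralisation needs, and Hs3st5 encodes an enzyme that adds sulfate to heparan sulfate chains.

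The study asked how niche cells of the bone marrow differ with age, in 1 library from adult and 1 from old mice, both wild type (WT) and of the strain given as C57BL6, or C57BL6J in the protocol. Marrow was flushed from long bones and digested with collagenase IV, dispase and DNase, blood-forming cells were depleted on a magnetic separator, and live cells sorted by scatter and DAPI went into the 10x 3′ v3.1 chemistry. The sources used here do not give ages in months, sex, the number of mice or any pooling. With 1 library per age there is no replicate, so no test between the ages was possible, age cannot be told apart from library, and the ranges given for ratios cover counting error only.

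The adult library held 25635 barcodes and 208637421 UMIs, the old one 22298 and 229917243, and 152 barcode sequences occurred in both (17 adult and 11 old osteo-primed cells among them). Because the rule asks for a fixed number of UMIs, it takes deeper cells. Osteo-primed cells had a median of 10789 UMIs in the adult library against 10790 in the old one, against 7033 and 7693 in the other CAR cells, and a median of 3850 and 3852 genes against 2930 and 3122. Levels are therefore given as CPM, a gene's UMIs scaled to the same total in each group. Transcripts of other cell types were also counted in these barcodes, and whether they came from free RNA or from doublets was not tested. The list of B and plasma cell markers summed to 15001 CPM in old osteo-primed cells and 21176 CPM in the other old CAR cells, against 3.19 and 1.59 CPM in the adult library. Igkc, an antibody chain gene, was at 184 UMIs per old osteo-primed cell, 197 per old megakaryocyte and 184 per old endothelial cell. T or NK cell markers were at or near 0, summing to 0.0620 CPM (adult) and 0.479 CPM (old) in osteo-primed cells.

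The 3 genes that chose the cells were not equally present in them. In the adult library 91.8% of osteo-primed cells had a UMI of Wif1 and 98.6% of Alpl, and in the old library 96.9% and 93.6%. Both genes were found together in 90.5% of the cells in each library. Hs3st5 was found in 20.8% of adult but 2.75% of old osteo-primed cells, so in the old library the selection rested almost wholly on Wif1 and Alpl. Without Hs3st5 in the rule the shares of CAR cells were 16.8% and 10.4%. The median sum of the 3 genes was 14 UMIs in adult and 10 in old osteo-primed cells, and 39.7% and 18.0% had 20 or more. Osteocalcin, the product of mature osteoblasts, was at 0 UMIs in 8.75% of adult and 61.5% of old osteo-primed cells. This was not particular to the adult osteo-primed cells. Their log2 ratios to the other adult CAR cells were 0.077 for Bglap and 0.36 for Bglap2.

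Wif1 was at 993 CPM in adult osteo-primed cells and 38.0 CPM in the other adult CAR cells, and at 548 and 32.4 CPM in the old library. Alpl was at 793 against 68.8 CPM in adult and 507 against 21.1 CPM in old cells. Hs3st5 was at 109.6 against 1.76 CPM in adult and only 6.34 against 0.310 CPM in old cells. These differences follow from the rule and are given as a description. Across the 4 groups plotted with the markers, Wif1 peaked in the osteo-primed cells of both libraries, while Alpl stayed high in the osteocalcin-high CAR cells (721 CPM, adult) and the adult osteoblasts (759 CPM).

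**Figure D1:**
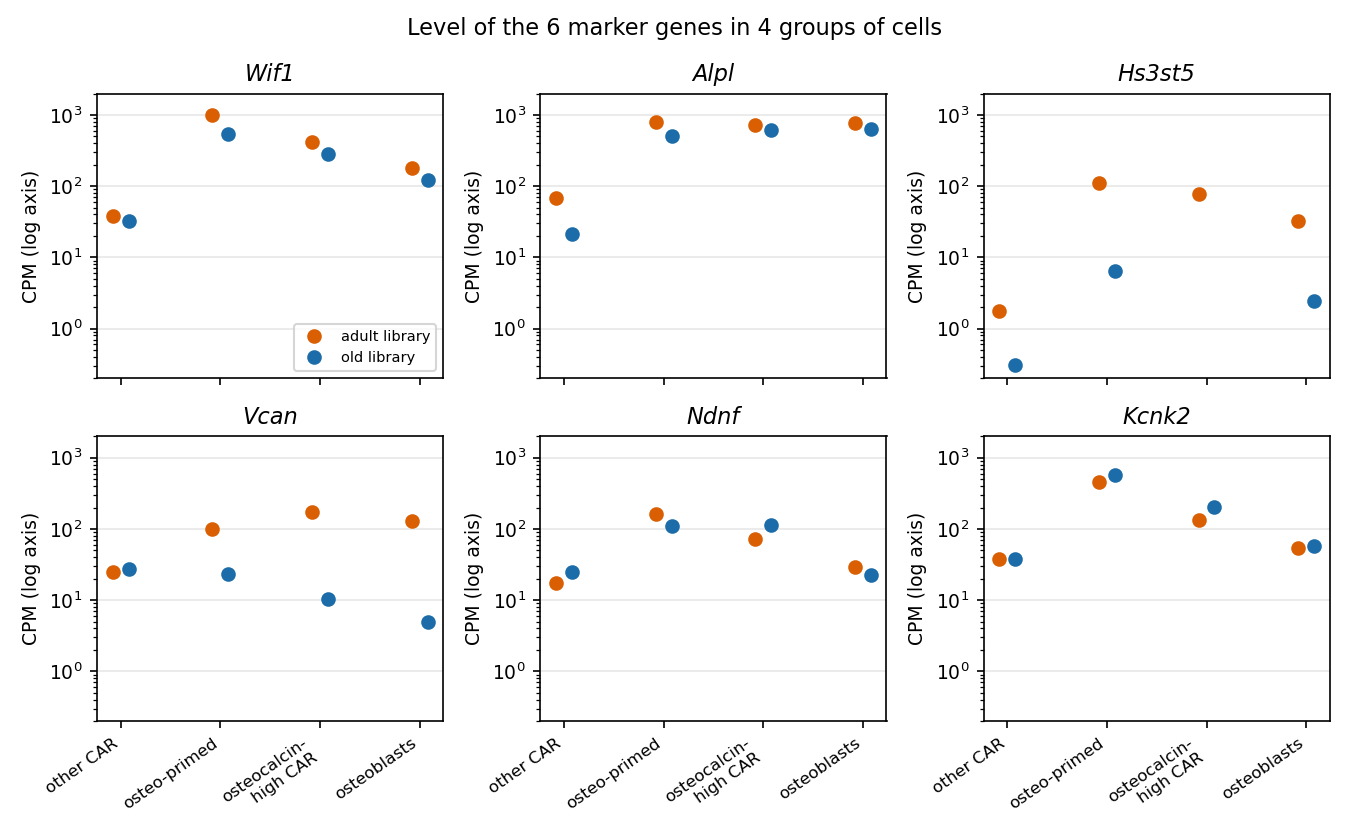
Level (CPM, log axis) of the 6 marker genes in other CAR cells, osteo-primed cells, CAR cells with 5 or more UMIs of the 3 selecting genes and 20 or more of osteocalcin, and osteoblasts. Each point is the pooled cells of 1 library (adult orange, old blue). In the adult library Kcnk2 and Ndnf are highest in osteo-primed cells and lower in osteoblasts, and Vcan is above its level in other CAR cells only in the adult library.

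Of the 6 proposed markers, 3 played no part in the selection. They were proposed with earlier results of these data known, so their levels describe the cells and cannot check the label. Kcnk2, a background potassium channel that responds to stretch, was at 450.0 CPM in adult osteo-primed cells and 38.0 CPM in other adult CAR cells, 11.8-fold higher (log2 3.57, counting range 3.51 to 3.62). The old library had it at 565 against 38.1 CPM (log2 3.89). Ndnf, a secreted fibronectin-domain protein, was at 163 against 17.2 CPM in adult and 111 against 24.9 CPM in old cells (log2 3.24 and 2.16). Both genes therefore stood apart in the same direction in both libraries. Vcan, the large matrix proteoglycan versican, did so only in the adult library. It was at 98.9 against 25.1 CPM there and at 23.3 against 27.6 CPM in the old library, where it was slightly lower in the osteo-primed cells (log2 -0.24, counting range -0.40 to -0.091). Of these 3 markers, 3 were thus higher in adult and 2 in old osteo-primed cells.

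Thinning every cell to 4000 UMIs, which left out 82 adult and 36 old osteo-primed cells, gave the same picture per cell. Kcnk2 was then found in 62.5% of adult osteo-primed cells, 11.8% of other adult CAR cells and 3.14% of adult endothelial cells, read for background (unthinned 78.1%, 18.8% and 5.88%). In the old library the thinned shares were 73.1%, 10.6% and 2.38% (unthinned 88.0%, 17.0% and 2.13%). Ndnf was found after thinning in 34.6% of adult and 29.2% of old osteo-primed cells, against 5.70% and 8.32% of other CAR cells (unthinned 54.1%, 54.3%, 9.90% and 15.1%). Vcan was found in 21.2% of adult osteo-primed cells against 8.04% of other CAR cells, but in 8.39% against 9.21% in the old library (unthinned 37.7%, 13.1%, 18.3% and 15.9%). Endothelial cells had a median of 5831 UMIs in the adult library against 4412 in the old one before thinning.

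The cells kept the CAR programme at a lower level. Cxcl12, the chemokine that retains blood stem cells, was at 6745 CPM in adult osteo-primed cells against 8817 CPM in other CAR cells, and at 6067 against 7703 CPM in the old library. Lepr, the leptin receptor that marks this lineage, was at 1226 against 2266 CPM in adult and 1366 against 2604 CPM in old cells. Both genes are part of the CAR rule, which sets a floor under them. Kitl, stem cell factor, was not used by the rule and was at 2456 against 3924 CPM in adult and 2386 against 4034 CPM in old cells (log2 -0.68 and -0.76). Osteoblasts of the adult library had 92.7 CPM of Kitl and 179 CPM of Cxcl12. Ebf3 and Foxc1, transcription factors that maintain CAR cells, were at 1526 against 2087 CPM and 361 against 459.6 CPM in the adult library. Of 29 genes listed for CAR identity and niche support, 8 were higher and 21 lower in adult osteo-primed cells, with a median log2 ratio of -0.44, and 11 were higher and 18 lower in old ones (median -0.31). Over all 7235 genes past 20 CPM in the adult comparison, 3805 were higher, 215 of them at least 2-fold, and the median was 0.012. Over the 7251 of the old comparison, 3701 were higher, 196 of them at least 2-fold. The member of that list that was at least 2-fold higher, in both libraries, was Spp1 (osteopontin), a matrix phosphoprotein.

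The selecting sum behaved as a continuous scale, with no gap at the threshold. Just inside it, the 527 adult cells with a sum of 5 or 6 had Kcnk2 at 110.3 CPM, and just outside, the 1189 adult cells with a sum of 3 or 4 had 66.4 CPM. The 324 old cells just inside had 276 CPM of Kcnk2 and the 666 just outside had 141 CPM. From cells with none of the 3 genes to cells with 20 or more, Kcnk2 went from 27.9 to 721 CPM in the adult and from 22.2 to 839 CPM in the old library, higher at each step. Sp7, the transcription factor osterix that commits cells to the osteoblast fate, went from 12.3 to 119.6 CPM and from 15.2 to 116 CPM. Over the same steps Lepr went from 2392 to 900.2 CPM in adult and from 2789.9 to 1104 CPM in old cells, and Kitl from 4086 to 1875 and from 4282 to 2014 CPM. Cells high in the selecting genes thus had the least Lepr and Kitl and the most Kcnk2 and Sp7. Median depth also moved along this scale, from 6251 to 12038 UMIs in adult and from 7324.5 to 13149.5 in old cells, and its part in the trend was not tested. Spp1 did not follow the same course in both libraries. In old cells it was already at 3024 CPM at a sum of 3 or 4 and 4844 CPM at 5 or 6, while adult cells of these steps had 390.2 and 581 CPM.

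**Figure D2:**
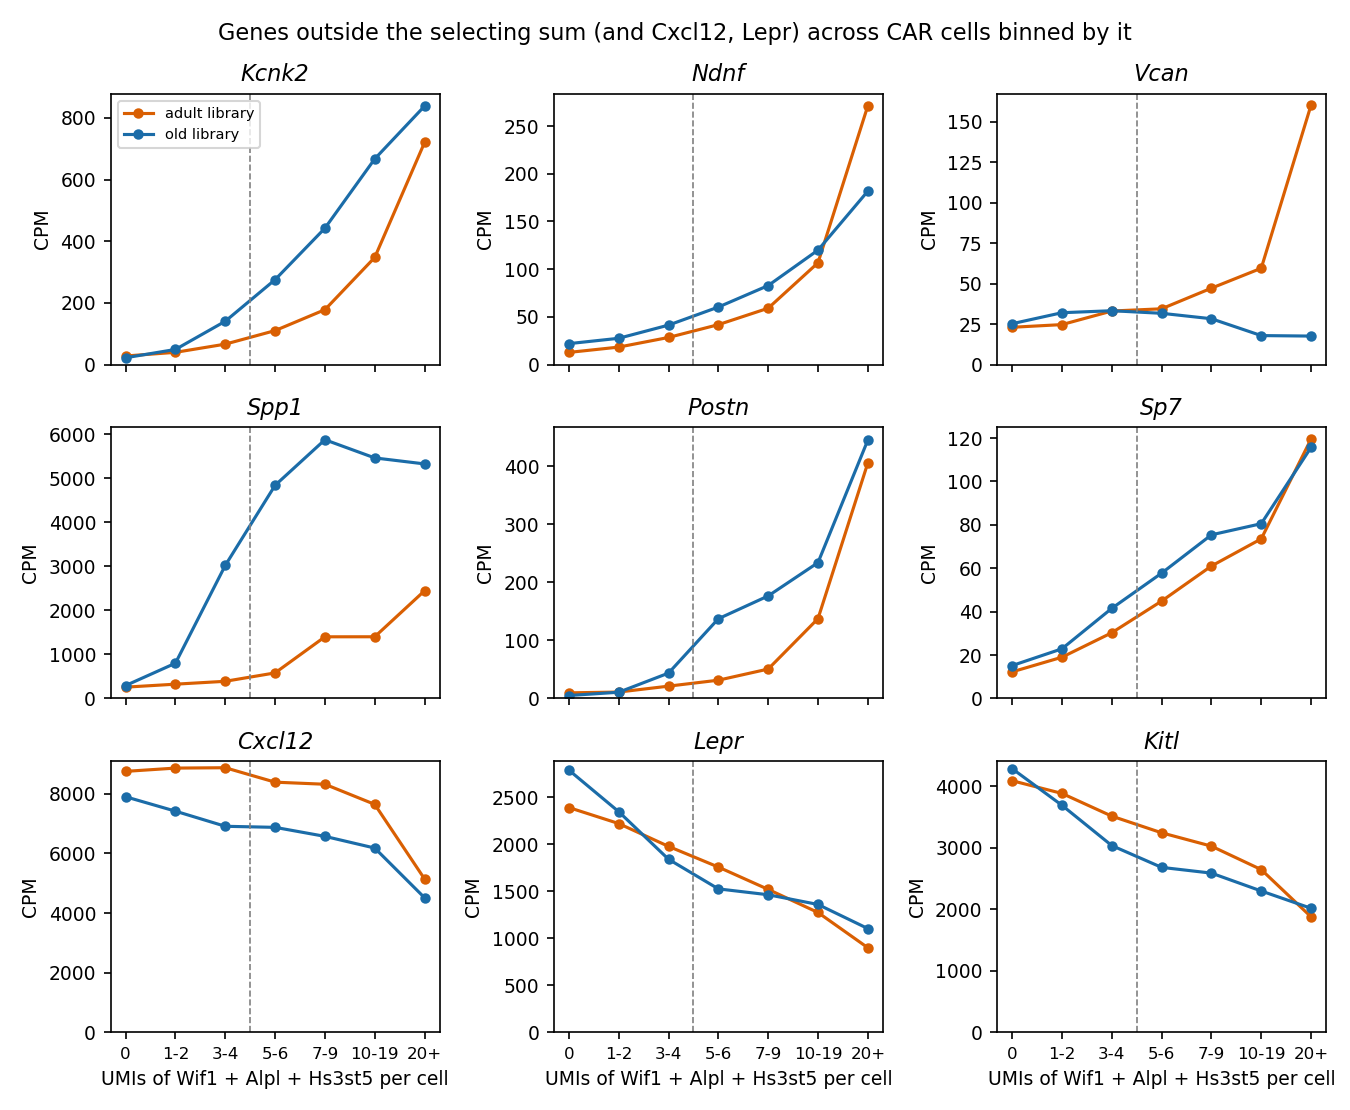
Level (CPM) of 9 genes in CAR cells grouped by their UMIs of Wif1, Alpl and Hs3st5 combined, for the adult (orange) and old (blue) library. The dashed line is the threshold of 5. Kcnk2, Ndnf, Postn and Sp7 are higher at higher sums in both libraries, Lepr and Kitl are lower, and Vcan is higher in the adult library only.

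In the adult library 4112 genes were measured well enough to compare (at least 50 CPM and 50 UMIs in the higher group). Of these, 124 (3.02%) were at least 2-fold higher in osteo-primed than in other CAR cells and 79 (1.92%) at least 2-fold lower. These counts include the selecting genes that passed the minimum. Of the genes of the old library, 130 of 4051 genes (3.21%) were at least 2-fold higher and 90 (2.22%) lower. The cells were chosen by genes of this same contrast, so the counts describe them and test nothing. The higher genes of the 2 libraries had 81 in common, 65.3% of the adult and 62.3% of the old list, and the lower genes 43, or 54.4% and 47.8%. Of the 124 adult higher genes 120 lay above 0 in the old library as well, and of the 79 lower genes 77 lay below it. Across 3740 genes other than those of the rule, the log2 ratios of the libraries had a Pearson's r of 0.903 and a Spearman's rho of 0.840, with genes not independent of each other. The same rule chose the cells in both libraries, so this likeness is a description too.

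**Figure D3:**
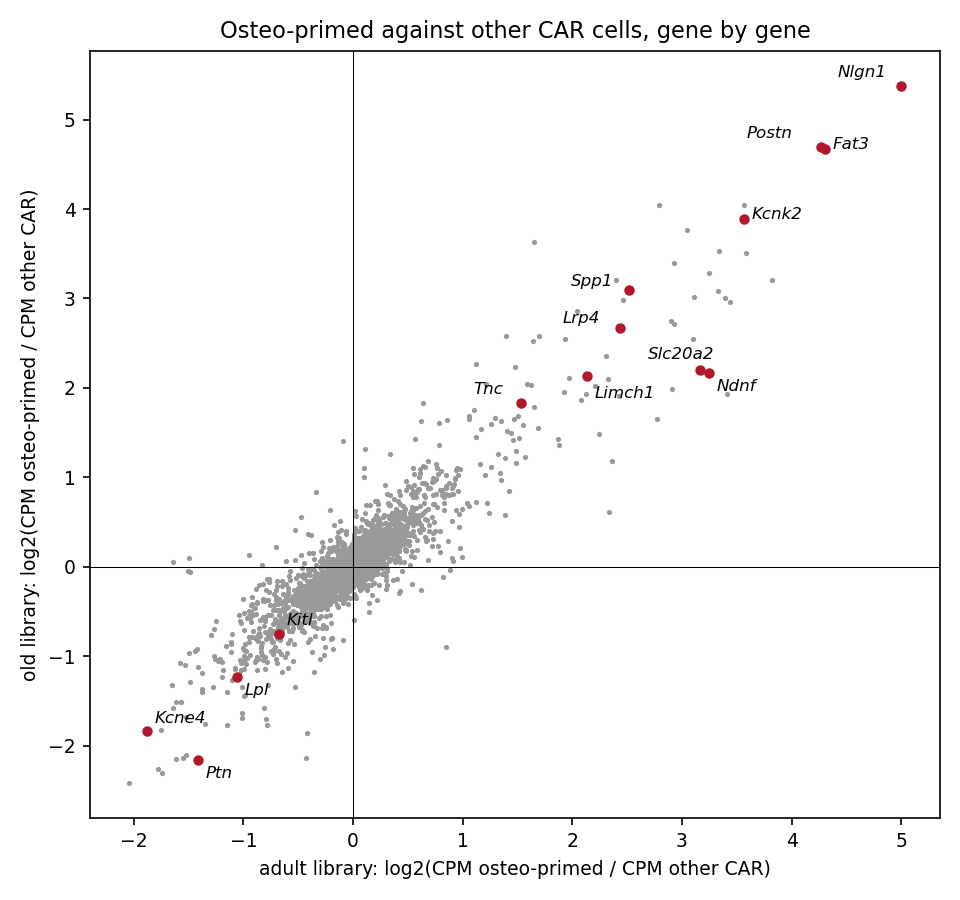
Each point is a gene, with its log2 ratio of CPM in osteo-primed to other CAR cells in the adult library (x axis) and in the old library (y axis), leaving out the genes of the rule. Some of the genes named in the text are in red. Nlgn1, Fat3, Postn and Kcnk2 are far above 0 in both libraries, and Kcne4, Ptn and Lpl below 0 in both.

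The 15 adult genes farthest above the other CAR cells were of several kinds, among them adhesion and channel genes, matrix genes (Postn, Ndnf, Fn1 and Spp1) and the phosphate transporter Slc20a2. Nlgn1, a synaptic adhesion protein, was at 114 against 3.57 CPM in adult and 82.6 against 1.98 CPM in old cells (32.0-fold and 41.6-fold higher). Ncam1, the neural cell adhesion molecule, was at 547 against 208 and 813 against 136 CPM, and Cadm1, another adhesion molecule, at 149 against 19.6 and 219 against 20.7 CPM. Syt6, a synaptotagmin, had log2 ratios of 3.11 and 3.01, and Kcnh1, a voltage-gated potassium channel, of 3.32 and 4.07. Ncam1 and S100b brought the list of 6 Schwann cell markers to 823 CPM in adult and 1182 CPM in old osteo-primed cells, against 344 and 254 CPM in other CAR cells. The defining Schwann gene Sox10 was near 0, with 0.496 CPM (adult) and 0.299 CPM (old) in osteo-primed cells. S100b itself, a calcium-binding protein also made by chondrocytes, was at 270.2 against 129.6 CPM in adult and 363 against 113 CPM in old cells. Ncam1 and S100b were singled out after their values were seen.

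Some matrix and cytoskeletal genes were also higher. Postn, periostin, was at 228 against 11.8 CPM in adult and 245 against 9.46 CPM in old cells, 19.2-fold and 25.9-fold higher. Tnc, tenascin C, was at 4193 against 1453 and 4469 against 1255 CPM. Limch1, a regulator of non-muscle myosin, was at 2593 against 592 CPM and 2615 against 595 CPM, nearly the same pair of levels in both libraries. Spp1 was at 1730.1 against 303 CPM in adult cells and much higher, at 5382 against 631 CPM, in old ones. Mmp13, the collagenase that remodels bone and cartilage matrix, was at 1540.0 against 501 and 2035 against 497 CPM, whereas adult osteoblasts had 38.2 CPM. Of 32 other collagen and matrix genes past 20 CPM, 17 were higher and 15 lower in adult osteo-primed cells, 9 of them at least 2-fold higher, with a median log2 ratio of 0.20. The old library had 19 higher and 13 lower (median 0.21). Among all 7235 adult genes past 20 CPM, 3805 were higher, 215 of them at least 2-fold. The matrix genes thus split, with Postn, Ndnf, Fn1 and Ccn4 at the upper end.

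Transcription factors of the bone lineage were higher. Sp7 was at 87.5 against 17.4 CPM in adult and 81.8 against 19.1 CPM in old cells, with 189.9 CPM in adult osteoblasts. Runx2, the master regulator of osteoblasts, was high in all CAR cells, at 2005 against 1648 and 2437 against 1887 CPM, and lower in adult osteoblasts at 868 CPM. Tbx2 and Hey1, a T-box factor and a Notch target, had adult log2 ratios of 2.55 and 1.92 and old ones of 3.27 and 1.39. Of 20 osteogenic transcription factors past 20 CPM in the adult library, 15 were higher and 5 lower (7 at least 2-fold higher, median log2 0.32). In the old library 13 of 18 were higher and 5 lower (6 at least 2-fold higher, median 0.28). Over all genes past the same minimum, 215 of 7235 adult and 196 of 7251 old genes were at least 2-fold higher.

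Bone matrix genes were higher too, and in the adult library osteoblast transcripts were also counted in endothelial cells and megakaryocytes. The list used held Kcnk2, a proposed marker of these cells, and Bglap and Bglap2, which the rule limits in both groups. Of its 28 genes past 20 CPM, 24 were higher and 4 lower in adult osteo-primed cells (15 at least 2-fold higher, median log2 1.18). In the old library 21 of 22 were higher and 1 lower (10 at least 2-fold higher, median 0.76), against 215 of 7235 adult and 196 of 7251 old genes at least 2-fold higher in all. Col1a1, the main collagen of bone, was at 39.0 UMIs per adult osteo-primed cell and 6.43 per other CAR cell, but at 33.4 per adult endothelial cell and 76.5 per adult megakaryocyte, cell types that should lack it. In the old library it was at 6.69 UMIs per osteo-primed cell, 0.823 per other CAR cell, 0.163 per endothelial cell and 6.13 per megakaryocyte. The 6 osteoblast markers together stood at 8649 CPM in adult osteo-primed cells, 8122 CPM in other adult CAR cells, 7998 CPM in adult endothelial cells and 45718 CPM in adult megakaryocytes, and at 4697 and 2817 CPM in old osteo-primed and other CAR cells. The part of free or attached osteoblast RNA in these differences was not tested. The same holds for Fat3, Car3 and Tmtc2, which were among the 15 highest ratios yet were at 2.04, 2.53 and 1.20 UMIs per adult megakaryocyte against 4.76, 2.71 and 3.44 per osteo-primed cell. By contrast Kcnk2 was at 0.0264 UMIs per adult megakaryocyte and 5.50 per osteo-primed cell, and Postn at 0.149 and 2.78.

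Genes that act on mineral did not move together. Slc20a2, a phosphate transporter, was at 304 against 33.8 CPM in adult and 123 against 26.7 CPM in old cells, and adult osteoblasts had 36.3 CPM. Smpd3, a sphingomyelinase needed for bone mineral, was at 63.2 against 13.1 CPM in adult and 12.9 against 7.97 CPM in old cells. Mgp, an inhibitor of calcification, was lower in osteo-primed cells, at 591 against 1346 and 2098 against 4662 CPM. Ibsp, bone sialoprotein, was lower in adult osteo-primed cells (5042 against 7004 CPM) and higher in old ones (3957 against 2696 CPM). Of the mineralisation list, 6 of 10 measured genes were higher and 4 lower in adult cells (median log2 0.53) and 6 of 9 higher in old cells (median 0.55). Alpl is among the higher genes of this list, which follows from the rule. Of all genes past 20 CPM, 3805 of 7235 were higher in adult and 3701 of 7251 in old cells. The 5 osteocyte markers summed to 79.5 CPM in adult osteo-primed and 94.1 CPM in other adult CAR cells, and to 286 and 405 CPM in the old library. Most of that was Phex, an endopeptidase gene, at 66.7 and 261 CPM in adult and old osteo-primed cells. Sost, which encodes sclerostin, was at 0.0930 CPM in the adult cells and had no UMI in the old ones. Of the osteocyte list 1 of 3 measured genes was higher in adult and 3 of 4 in old osteo-primed cells.

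In the Wnt pathway, to which Wif1 belongs, secreted inhibitors, receptors and targets each held some genes that were higher. Sfrp1, another secreted Wnt antagonist, was at 233 against 119.9 CPM in adult and 363 against 178 CPM in old cells, and Sfrp4 was lower at 326 against 622 and 222 against 300.5 CPM. Of the 8 measured Wnt inhibitors, Wif1 among them, 7 were higher in adult cells (median log2 0.39), and 4 of 7 in old cells (median 0.28). Only 2 of the adult ones were at least 2-fold higher, Wif1 and Cthrc1, which is also on the bone matrix list. Cthrc1 had a log2 ratio of 2.25, and of 1.20 with each cell weighted alike. All genes past 20 CPM had 3805 of 7235 higher in adult and 3701 of 7251 in old cells. Among ligands Wnt5a was at 28.8 against 9.26 and 34.5 against 11.2 CPM, and its receptor Ror2 at 57.2 against 23.6 and 24.3 against 7.05 CPM. Lrp4, a receptor that binds sclerostin, was at 196 against 36.2 CPM in adult and 429.9 against 67.5 CPM in old cells. Tnfrsf19, a Wnt target, was at 419 against 168 and 623 against 259 CPM. Lef1, the nuclear partner of beta-catenin, and the feedback target Axin2 were below 20 CPM, yet Lef1 was at 11.5 against 1.07 CPM in adult and 11.5 against 1.33 CPM in old cells and Axin2 at 8.62 against 2.97 and 9.45 against 4.10 CPM. Lef1 and Axin2 were singled out after their values were seen. So was Sfrp4 for this contrast, though its list named it in other contrasts. As whole lists, the 15 measured Wnt receptors (8 higher, 7 lower, median 0.026) and the 11 Wnt targets and effectors (7 higher, 4 lower, median 0.079) of the adult library lay close to the median of all genes.

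BMP signalling showed the same mixture. Gdf10, a ligand of this family, was at 55.3 against 7.25 CPM in adult and 90.7 against 13.9 CPM in old cells. The secreted BMP antagonist Nog, noggin, was at 20.3 against 4.56 and 18.5 against 3.73 CPM, and the intracellular inhibitor Smad6 at 247 against 90.0 and 171 against 64.2 CPM. The BMP target Id1 was at 99.6 against 61.5 and 32.7 against 17.5 CPM. Ligand Bmp6 and antagonist Grem1 went the other way, at 703 against 1182 and 322 against 568 CPM in the adult library. The 18 measured ligands and inhibitors had a median log2 ratio of 0.10 in adult cells (10 higher, 8 lower), and the 19 receptors and targets 0.15 (13 higher, 6 lower). In the old library 11 of 19 ligands and inhibitors (median 0.088) and 10 of 17 receptors and targets (median 0.091) were higher. For all genes past 20 CPM, 3805 of 7235 were higher in adult and 3701 of 7251 in old cells. The ligands and inhibitors lay near that share.

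Enzymes that shape heparan sulfate, the class of Hs3st5, were not higher as a list. Of 10 measured in adult cells, Hs3st5 among them, 5 were higher and 5 lower (median log2 0.017). Of 11 in the old library 6 were higher (median 0.13). Hs3st4, a relative of Hs3st5 with the same reaction, was at 26.4 CPM in adult and, at a higher level, 53.7 CPM in old osteo-primed cells (log2 ratios to other CAR cells 3.34 and 2.16). In old osteo-primed cells as a group Hs3st4 was thus at a higher level than Hs3st5. Hs3st5 was also lower in the other old CAR cells than in the other adult ones. Whether Hs3st4 took the place of Hs3st5 was not tested. Of the proteoglycans, 15 of 19 were higher in adult cells (8 at least 2-fold, median 0.72) and 9 of 16 in old cells (2 at least 2-fold, median 0.056). All genes past the minimum gave 3805 of 7235 higher in adult cells (215 at least 2-fold) and 3701 of 7251 in old cells (196 at least 2-fold), so the old proteoglycan share lay near that of all genes. Omd, osteomodulin of bone matrix, was higher in both libraries (log2 2.48 and 1.14). Lum, lumican, was at 231 against 70.2 CPM in adult and 32.8 against 47.2 CPM in old cells, and Prelp was lower in both, at 137 against 331 and 83.1 against 211 CPM.

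Cartilage genes were higher beside these. The 6 chondrocyte markers summed to 788 CPM in adult osteo-primed cells against 273 CPM in other CAR cells, and to 186 against 35.5 CPM in the old library. Col2a1, the collagen of cartilage, was at 514 against 164 CPM in adult and 90.9 against 7.34 CPM in old cells. Acan, aggrecan, was at 53.2 CPM in adult osteo-primed cells and had 0 UMIs in old ones. Adult endothelial cells had 459.7 CPM of the same 6 markers. Whether chondrocyte RNA contributed to Vcan in the adult osteo-primed cells was not tested.

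Genes lower in osteo-primed cells included adipogenic genes, cytokines and channel subunits. Lpl, lipoprotein lipase, was at 1236 against 2576 CPM in adult and 449.8 against 1059 CPM in old cells, and Adipoq, adiponectin, at 1369 against 1897 and 1030.0 against 1224 CPM. Of 16 measured adipogenic genes 13 were lower in adult (median log2 -0.34) and 11 in old cells (median -0.28). Among all genes past 20 CPM, 3430 of 7235 were lower in adult and 3550 of 7251 in old cells. Pparg, the master regulator of fat cells, was at 268 against 367 and 187 against 285 CPM. Tnfsf11, the osteoclast-inducing cytokine RANKL, was lower in adult osteo-primed cells at 535 against 871 CPM but slightly higher in old ones at 205 against 177 CPM. Its list of osteoclast and osteocyte coupling genes had 6 of 9 lower in adult cells (median -0.70) and 4 of 8 in old cells (median -0.016). Ptn, the growth factor pleiotrophin, was lower in both libraries, at 143 against 379.5 and 15.9 against 71.3 CPM, and so were Ccl2, a monocyte chemokine (log2 -1.65 and -1.33), and Il34, a ligand of the CSF1 receptor (103 against 206 and 99.5 against 219 CPM). The potassium channel subunit Kcne4 had the lowest adult ratio of the genes ranked, at 59.5 against 219 CPM (log2 -1.88), and was at 16.6 against 59.2 CPM in the old library. Igfbp3, which binds insulin-like growth factors, and Nrg3, a neuregulin, were also among the 15 lowest, with log2 ratios of -1.55 and -1.57 in adult and -2.14 and -1.51 in old cells.

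Immediate early genes, which respond to stimulation and to tissue digestion, were lower in adult osteo-primed cells for 23 of 25 genes (median log2 -0.77) and for 17 of 23 in old ones (median -0.28). All genes past 20 CPM gave 3430 of 7235 lower in adult and 3550 of 7251 in old cells. Fos was at 1574 against 2679.7 CPM in adult and 1007 against 1112 CPM in old cells. Of the interferon genes 9 were higher and 8 lower in adult cells (median 0.020) and 4 higher and 14 lower in old cells (median -0.16), and the selection had left out interferon-high cells.

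**Figure D4:**
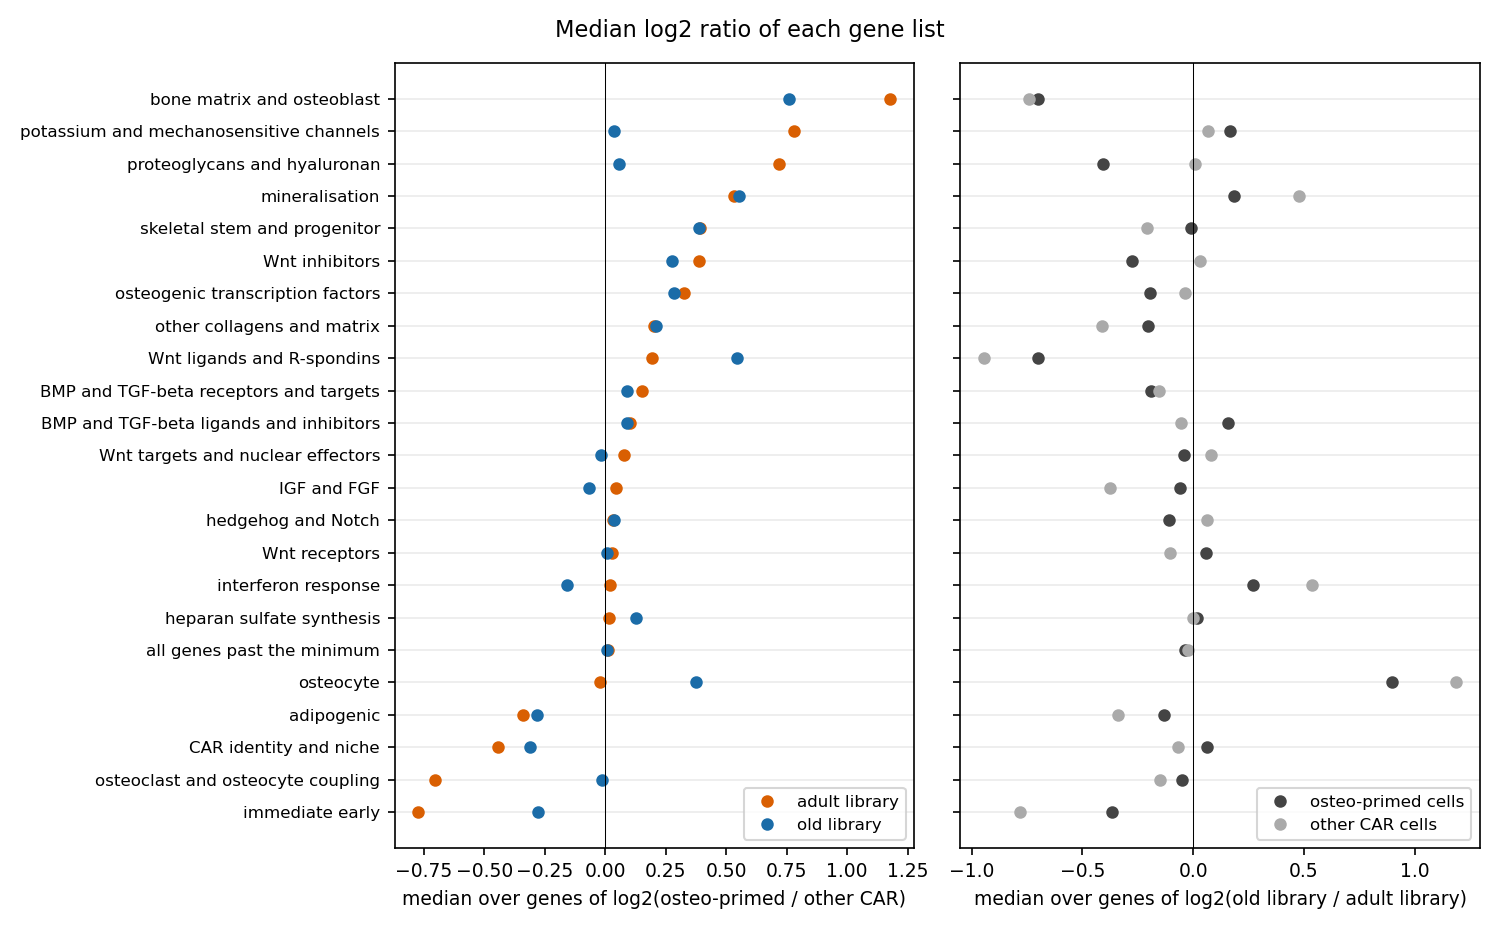
Median log2 ratio of CPM over the measured genes of each list, for osteo-primed against other CAR cells (left, adult orange, old blue) and for the old against the adult library (right, osteo-primed cells dark, other CAR cells light). Bone matrix genes are the highest list on the left in both libraries, and the immediate early and CAR identity lists are below 0 in both.

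The osteo-primed cells differed among themselves in which selecting gene led, and these subsets, cut by the same counts, are a description. Cells with more Wif1 than Alpl UMIs were 48.3% of the adult and 51.3% of the old osteo-primed cells, and cells with more Alpl than Wif1 46.6% and 43.4%. In the adult library the Wif1-led cells had Kcnk2 at 671 CPM, Ndnf at 236 CPM and Postn at 322 CPM, and the Alpl-led cells had 259, 101 and 154 CPM. Col1a1 was at 1209.7 CPM in Wif1-led and 5126 CPM in Alpl-led adult cells, and Cxcl12 at 6094 and 7229 CPM. In the old library Kcnk2 was at 598 CPM in Wif1-led and 512 CPM in Alpl-led cells, but Postn was at 172 and 334 CPM, the opposite order from the adult cells. Ibsp was higher in Alpl-led cells of both libraries, at 6216 against 3858 CPM in adult and 5146 against 2922 CPM in old cells. Median depth was alike, at 10418.5 and 11233 UMIs in the adult and 10729 and 11029 UMIs in the old library.

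The cells also lay together when the genes of the rule were taken away. The osteo-primed and other CAR cells of each library, without the osteocalcin-high CAR cells, were placed by 30 principal components of 2000 variable genes other than those of the rule. Of the 15 nearest cells around an adult osteo-primed cell, 72.1% on average were osteo-primed, while osteo-primed cells were 18.8% of the cells placed. The old library gave 66.4% and 10.4%. Around the other CAR cells the share was 6.18% in the adult library against 3.70% in the old one. Most neighbours were osteo-primed for 1937 adult cells (73.4%) and 943 old cells (70.0%). The share was lower close to the threshold, at 36.5% around adult and 42.3% around old cells with a sum of 5 or 6. Around cells with a sum of 20 or more it was 95.4% and 90.6%. Depth differs between the groups and its part in the placement was not tested.

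Compared with osteoblasts, the osteo-primed cells kept the niche genes and had little of the mature matrix. Osteoblasts were taken as cells with 20 or more osteocalcin UMIs, making up at least 0.5% of the cell, fewer than 10 of Cxcl12, fewer than 3 of Cdh5 and Kdr and fewer than 5 of the platelet genes Pf4 and Ppbp. There were 664 in the adult library against 54 in the old one. This contrast follows in part from the rule, which sets Cxcl12, Lepr and osteocalcin apart. Of 4157 genes in the adult library 1538 (37%) were at least 2-fold higher in osteo-primed cells and 311 (7.48%) at least 2-fold lower. The median over all genes was itself 0.67 on the log2 scale, and after centring on it 786 genes were higher and 726 lower. Col1a1 was at 3190.3 CPM in osteo-primed cells and 92679 CPM in osteoblasts, Col1a2 at 3151 and 72643 CPM, and Bglap at 189.9 and 40776 CPM. The protease-like Prss35 had the lowest ratio of the genes ranked, at 2.02 against 319.6 CPM (log2 -7.31). All 29 CAR identity genes were higher than in osteoblasts (28 at least 2-fold, median 4.60), and 28 of 31 bone matrix genes were lower (median -3.48). Among all 7320 genes past 20 CPM, 5721 were higher, 2707 of them at least 2-fold, and 1599 were lower.

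The genes that set osteo-primed cells farthest above osteoblasts were in large part shared with other CAR cells. Kcnq3, a neuronal potassium channel, was at 247 CPM in osteo-primed cells, 2.57 CPM in osteoblasts and 124 CPM in other CAR cells. Chl1, a neural adhesion molecule, was at 102, 1.86 and 82.9 CPM in the same groups, and Fbln5, an elastic fibre protein, at 973, 22.5 and 797 CPM. A smaller set was above both groups. Limch1 was at 2593 CPM in osteo-primed cells and 189 CPM in osteoblasts, Tnc at 4193 and 389.8 CPM, Kcnk2 at 450.0 and 54.0 CPM, and Col8a1, a short-chain collagen, at 1408 and 29.8 CPM. Sp7 and Pth1r, the receptor of parathyroid hormone, lay between other CAR cells and osteoblasts. Pth1r was at 86.5 CPM in other CAR cells, 221 CPM in osteo-primed cells and 328 CPM in osteoblasts of the adult library. Adult CAR cells with 5 or more of the selecting UMIs and 20 or more of osteocalcin, of which there were 1089 in the adult but 27 in the old library, had Kcnk2 at 135 CPM, Kitl at 1181 CPM and Col1a1 at 60197 CPM. Doublets of a CAR cell and an osteoblast were not called, and their part in that group was not tested.

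Between the libraries, osteo-primed cells were a smaller share of the old than of the adult CAR cells. Of 4190 genes, 123 (2.94%) were at least 2-fold higher in the old library and 88 (2.1%) at least 2-fold lower, with a median log2 ratio of -0.044. The markers outside the rule moved apart: Kcnk2 was at 450.0 CPM in adult against 565 CPM in old osteo-primed cells, Ndnf at 163 and 111 CPM, and Vcan at 98.9 and 23.3 CPM. In the other CAR cells Vcan was about level, at 25.1 and 27.6 CPM. Lum had a log2 difference of -2.82 in osteo-primed and -0.57 in other CAR cells. Spp1 was at 1730.1 CPM in adult against 5382 CPM in old osteo-primed cells (log2 1.64, other CAR cells 1.06). The receptor gene Lrp4 was also higher in old cells (log2 1.13, other CAR cells 0.90).

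Several of the farthest values belonged to transcripts abundant in other cells of the old library. Slpi, a secreted protease inhibitor, went from 0.249 to 19.9 UMIs per osteo-primed cell, but old megakaryocytes had 18.6 and old endothelial cells 11.1. Ly6k went from 1.02 to 121 CPM, with 1.24 UMIs per old megakaryocyte and 2.28 per old endothelial cell, and Cd74, the MHC class II chaperone, from 0.0311 to 1.81 UMIs per cell, with 1.53 per old megakaryocyte. Cxcl13, a B cell chemokine, and C3, the central complement protein, were scarce in old megakaryocytes. The part of other cells in their values was not tested. Cxcl13 was at 17.7 CPM in adult against 231 CPM in old osteo-primed cells, with 0.0270 UMIs per old megakaryocyte against 2.86 per osteo-primed cell, and C3 was at 52.9 and 398 CPM, with 0.143 UMIs per old megakaryocyte against 4.94 per osteo-primed cell (log2 3.70 for Cxcl13 and 2.91 for C3). The other CAR cells differed about as much, by 4.30 and 3.24. Fndc1, a fibronectin-domain protein, was at 28.3 and 226 CPM, and Megf10, an engulfment receptor, at 23.0 and 113 CPM.

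The growth factor and collagen lists did not move as a whole between the libraries. Of 18 measured insulin-like and fibroblast growth factor genes 9 were higher and 9 lower in old osteo-primed cells (median log2 -0.058), and of 32 other collagen and matrix genes 13 were higher and 19 lower (median -0.20), where 4027 of all 7394 genes were lower. Among single genes, Ptn was at 143 CPM in adult against 15.9 CPM in old cells, and Igf1, insulin-like growth factor 1, at 993 and 326 CPM. Col1a1 was at 3190.3 and 539 CPM, Fn1, fibronectin, at 251 and 34.8 CPM and Col3a1 at 213 and 40.1 CPM, and each was lower in the other old CAR cells too (log2 -3.18, -3.79 and -2.12). Snorc, a small cartilage proteoglycan, had 3758 UMIs in adult and 4 in old osteo-primed cells (log2 -8.93, counting range -10.80 to -7.57). The 6 chondrocyte markers also summed to less in other old CAR cells (273 CPM adult, 35.5 CPM old) and endothelial cells (459.7 and 3.86 CPM). Their sum was higher in old osteoblasts (1797 and 4975 CPM), but Acan, Matn3 and Col9a1 had no UMI in those 54 cells. The part of free chondrocyte RNA in the Snorc difference was not tested. Of 29 measured bone matrix genes 23 were lower in the old library (12 at least 2-fold, median -0.70), against 17 of 21 in other CAR cells (median -0.74). Of all 7394 genes in osteo-primed cells, 159 were at least 2-fold lower. The proteoglycan list had a median of -0.41 in osteo-primed cells (12 of 19 lower) and 0.009 in other CAR cells (8 of 17 lower). Osteoblast markers were fewer in the whole old library, with 54 osteoblasts against 664, and the part of free osteoblast RNA in these differences was not tested. Of 20 osteogenic transcription factors 12 were lower and 8 higher in the old library (median -0.19), near the 4027 of 7394 lower over all genes, with Runx2 at 2005 and 2437 CPM and Sp7 at 87.5 and 81.8 CPM.

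Grm7, a glutamate receptor, was lower in osteo-primed than in other CAR cells, at 63.4 against 388 CPM in the old library, while Fgf13 and Rspo3 were at 90.3 against 36.3 and 244 against 168 CPM. Kit, the receptor of stem cell factor, was at 45.2 against 30.8 CPM in the old and 10.0 against 4.93 CPM in the adult library.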

How the data were processed

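The values were UMI counts per gene and cell barcode as deposited by the authors, made with Cell Ranger 7.0.1 per the file headers and on GRCm39 per the submitters' processing notes. The sources used here do not name the annotation release or the barcode filter. Barcodes with at least 500 genes and at most 10% mitochondrial UMIs were kept, no doublet caller was run, and free RNA was not subtracted. Counts were summed over each group's cells and given as CPM. Endothelial cells (at least 5 UMIs of Cdh5 and Kdr, fewer than 10 of Cxcl12) and megakaryocytes (at least 20 of Pf4 and Ppbp, fewer than 3 of Cxcl12) served to read transcripts of other cell types. Ratios carry exact Poisson ranges at 95%, and a gene was called past 2-fold. The scripts were tested on simulated data and used Python 3.11.15, numpy 2.4.6, scipy 1.17.1, pandas 2.3.3, scikit-learn 1.9.0 and matplotlib 3.10.9.

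The members, gene lists and marker lists were chosen with earlier results of these data known. Genes named were the 15 highest and 15 lowest adult ratios to other CAR cells, the 10 highest and lowest ratios to osteoblasts and between the libraries (at least 100 CPM and 100 UMIs in the higher group), up to 4 genes per list in the direction of its median, and the genes of the rule with a few bone and CAR genes. Axin2, Fos, Grm7, Ibsp, Kit, Lef1, Ncam1, Pth1r, S100b and Sost fell outside this and were chosen after their values were seen. Igkc and Sox10, from the marker lists, also fell outside it. Alternatives varied the thresholds, depth, minimum level, scale, genes counted in megakaryocytes and neighbour settings.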

Additional observations from a re-analysis of the deposited data

Results flagged for a closer look

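For 4 of the genes named by the ranks and lists, the log2 ratio of osteo-primed to other CAR cells had opposite signs in the adult and old library. Their counting ranges lay on opposite sides of 0, with a difference of at least 2-fold. Genes chosen after their values were seen were not screened. Among those, Ibsp was also lower in adult and higher in old osteo-primed cells. With 1 library per age the difference was not tested. Vcan had a log2 ratio of 1.98 in the adult library against -0.24 in the old one, a difference of -2.22. Lum, another matrix proteoglycan, had 1.72 and -0.52, a difference of -2.24. Gadd45g, a stress-response gene, had -0.95 and 0.13, a difference of 1.08. Cd74, the MHC class II chaperone, had 0.67 and -0.69, a difference of -1.36, and old megakaryocytes held 1.53 UMIs of it per cell against 1.81 per old osteo-primed cell.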

How the results depend on the processing

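The old share of osteo-primed cells among CAR cells was below the adult share under each of the 10 alternatives tried. It was 24.5% adult and 15.5% old at a threshold of 3 UMIs, 10.8% and 5.50% at 10 UMIs, 10.2% and 4.39% with every cell thinned to 4000 UMIs, 14.2% and 7.73% at 5 per 7000 UMIs, and 10.4% and 6.21% without Alpl. The adult share was 23.9% with no osteocalcin limit and 15.7% at no more than 5% mitochondrial UMIs. Against other CAR cells, a minimum of 20 CPM gave 215 higher and 121 lower of 7235 adult genes. In the old library it gave 196 higher of 7251. At 100 CPM and 100 UMIs they were 66 and 42 of 2157 adult and 77 and 53 of 2118 old genes. Leaving out genes of high megakaryocyte CPM left 1291 adult genes, of which 64 were higher. Lower adult genes were 146 of 4151 at a threshold of 10 UMIs. In cells of 4000 to 12000 UMIs 142 of 4151 adult and 166 of 4209 old genes were lower. Against osteoblasts, the higher genes were 2707 of 7320 at 20 CPM and 837 of 2205 at 100 CPM. Without genes of high megakaryocyte CPM 873 of 1179 were higher and 85 lower. After centring on the median they were 786 and 726 of 4157. Between the libraries, 20 CPM gave 200 higher and 159 lower of 7394 genes, and 100 CPM gave 74 and 41 of 2171. Without genes of high megakaryocyte CPM 84 of 1387 were higher and 44 lower. With 50 nearest cells 70.2% of adult osteo-primed cells had mostly osteo-primed neighbours.

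In cells of 4000 to 12000 UMIs the ratio to adult osteoblasts turned to -0.64 for Hs3st5, -0.16 for Kcnab1 and -0.70 for Cenpf, and the old to adult ratio to -0.26 for Dmp1. In osteo-primed cells without osteocalcin UMIs, the old to adult ratio of Atf3 was 0.097. The cause was not tested in any of these. The settings without Hs3st5, without shared barcodes, by UMIs per megakaryocyte, without osteocalcin UMIs and with sums of 5 to 19 were added after seeing the data. No paired analysis was possible because each age had 1 library. Thinned to 4000 UMIs, 15.7% of adult osteo-primed cells held Hs3st5, against 1.91% of old ones.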

Other observations

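Ion channel genes parted within the osteo-primed cells. Kcnma1, a calcium-activated potassium channel, was at 108 CPM in adult osteo-primed cells against 13.1 CPM in other CAR cells, and at 137 against 10.1 CPM in the old library. Trpc6, a cation channel, was at 58.5 against 32.3 CPM and 58.8 against 18.8 CPM. Kcnab1, a channel subunit, was lower, at 31.9 against 55.2 CPM in adult cells and 104 against 338 CPM in old cells. Of the channel list, Kcnk2 among them, 6 of 9 measured genes were higher in the adult library (median log2 0.78) and 6 of 10 in the old one (median 0.036). Among all genes past 20 CPM, 3805 of 7235 were higher in the adult and 3701 of 7251 in the old library, near the old channel share.

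Growth factor binding proteins split as well. Igfbp4 was at 4585 against 3291 CPM in adult and at 3916 against 2155 CPM in old osteo-primed and other CAR cells, while Igfbp5 was at 8719 against 13383 CPM and 7812 against 11600.2 CPM. Fgfr3, a receptor found in cartilage and bone precursors, was at 78.5 against 42.0 CPM and 49.3 against 21.8 CPM. Of 17 measured insulin-like and fibroblast growth factor genes 9 were higher and 8 lower in the adult library (median 0.045), and of 18 in the old library 8 were higher and 10 lower (median -0.068). For all genes past 20 CPM, 3805 of 7235 were higher in adult and 3701 of 7251 in old cells.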
